A study of Mus musculus with 60 samples.

Results

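CD8 T cells taken from the gut of transplanted mice on day 6 were compared with CD8 T cells of the spleen labelled as taken before transplantation, by the T cell receptor (TCR) sequences listed for each sample. The samples were chosen by their tissue and cell type labels: 18 of the 60 samples of the series, 9 in the table of TCR alpha chains (TCRA) and 9 in the table of beta chains (TCRB). There were 6 gut and 3 spleen samples for each chain. The spleen samples were naive CD8 T cells of C57BL/6 mice before hematopoietic cell transplantation (HCT), 1 sample each of wild type (WT), STAT3ko (STAT3 removed in T cells by Cre under the CD4 promoter) and STAT3koPD-1ko mice, which lacked PD-1 as well, a receptor that restrains T cells. The gut samples held T cells of the same 3 donor genotypes, which had been infused into BALB/c mice after lethal irradiation, together with T cell-depleted bone marrow of WT C57BL/6 mice. The lymphocytes of 3 recipients were pooled in each sample, and donor CD8 cells were sorted as H-2Kb+TCRβ+CD8+. Each genotype had a gut number 1 and a gut number 2 sample, here described apart. Animal ages were not given in the sources used here. The CD8 and gut labels could not be checked, because the tables hold receptor sequences and no other gene.

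Each TCR chain is built by joining a V to a J segment, with a short D segment between them in the beta chain. Bases are trimmed and added at random at the joint. The joint encodes the third complementarity-determining region (CDR3), the loop that touches the presented peptide. Here a CDR3 in amino acids with its V and J defines a clonotype, which need not descend from a single T cell. CD8 T cells recognise peptides on class I molecules of the major histocompatibility complex, and in a mismatched transplant such as C57BL/6 into BALB/c many donor clones can respond to the foreign molecules of the recipient.

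The most frequent beta clonotype of each sample is printed below as its deposited CDR3 bases, 5′ to 3′, to show how far the leading clonotypes of gut and spleen lie from each other. Capitals mark the bases between the last V base and the first J base.
WT spleen, TRBV14 and TRBJ2-7: tgtgGTGGGACTGGGgaacagtacttc
STAT3ko spleen, TRBV29 and TRBJ2-5: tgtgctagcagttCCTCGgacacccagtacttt
STAT3koPD-1ko spleen, TRBV29 and TRBJ2-5: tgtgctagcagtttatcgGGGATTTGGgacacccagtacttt
WT gut number 1, TRBV14 and TRBJ2-5: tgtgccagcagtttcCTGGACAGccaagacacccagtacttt
STAT3ko gut number 1, TRBV14 and TRBJ2-2: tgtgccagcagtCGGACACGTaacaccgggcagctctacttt
STAT3koPD-1ko gut number 1, TRBV13-1 and TRBJ2-7: tgtgccagcagtgatTCtgaacagtacttc
WT gut number 2, TRBV21 and TRBJ2-1: tatgctgagcagttcttc
STAT3ko gut number 2, TRBV13-3 and TRBJ2-4: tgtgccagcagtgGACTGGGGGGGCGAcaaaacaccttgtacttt
STAT3koPD-1ko gut number 2, TRBV29 and TRBJ2-7: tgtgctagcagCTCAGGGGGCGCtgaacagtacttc

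No beta clonotype led more than 1 sample. The leader of the WT spleen, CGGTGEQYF in amino acids, held 0.826% of the listed frequency there, 0.008% in WT gut number 1 and 0 in the other 7 samples. The leader of the STAT3ko spleen, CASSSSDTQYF, held 0.455% in that spleen and 0.016% in STAT3ko gut number 1. The largest beta clonotype of any sample, the TRBV13-3 clonotype of STAT3ko gut number 2, held 3.08% there, 0.010% in WT gut number 2 and 0 in all 3 spleens. The WT gut number 1 leader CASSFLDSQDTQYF held 0.653% and was listed in no spleen sample. The leader of WT gut number 2, YAEQFF, lacks the starting cysteine of a regular CDR3 and was listed in all 18 libraries of its table, at 0.214 to 0.269% in spleen, 0.237 to 0.390% in gut number 1 and 0.539 to 0.606% in gut number 2. As percent of all reads, without dividing by the listed share of the sample, these were 0.210 to 0.257%, 0.222 to 0.317% and 0.312 to 0.323%.

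In TCRA, 8 of the 9 samples were led by a clonotype of TRAV16N, and some clonotypes led more than 1 sample. These 4 alpha CDR3 show 1 leader that was frequent in a single sample of gut and spleen and 3 that were listed everywhere.
WT spleen, TRAV14N-1 and TRAJ4: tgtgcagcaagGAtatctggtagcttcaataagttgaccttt
STAT3ko spleen and STAT3ko gut number 2, TRAV16N and TRAJ22: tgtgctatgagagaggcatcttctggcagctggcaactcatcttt
STAT3koPD-1ko spleen and STAT3ko gut number 1, TRAV16N and TRAJ22: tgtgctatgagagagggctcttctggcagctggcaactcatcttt
WT gut number 2, TRAV16N and TRAJ33: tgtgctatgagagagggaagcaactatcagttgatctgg
The last 3 hold no base between the V and J ends and were listed in all 18 alpha libraries. The first TRAJ22 clonotype held 0.391 to 0.548% of the listed frequency in the spleens and 0.182 to 0.576% in the gut samples, ranges that overlap. The TRAJ33 clonotype, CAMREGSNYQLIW, held 0.394% in WT gut number 2 and 0.004 to 0.059% in the other 8 samples. The leader of the WT spleen held 0.854% there, at most 0.005% in 5 other samples of gut and spleen and 0 in the remaining 3. It also held 0.0931% of the reads of WT liver number 1. Not every TRAV16N leader was frequent in several samples: the TRAV16N and TRAJ4 leader of STAT3koPD-1ko gut number 1 held 0.667% there, at most 0.017% in the others and 0 in the spleen of that genotype, and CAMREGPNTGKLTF held 0.489% in WT gut number 1 and at most 0.035% in the others.

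The values in the tables are fractions of the reads of a library, and a clonotype seen in a single library of the 18 joined in a table is left out. The share of a sample that is listed therefore depends on which other libraries share its clonotypes. The listed beta clonotypes held 95.7 to 98.4% of the reads in spleen, 81.5 to 93.8% in gut number 1 and 53.2 to 58.0% in gut number 2. In the alpha table these shares were 97.5 to 99.1%, 90.8 to 97.0% and 79.5 to 80.1%. The number of listed beta clonotypes was 8949 to 11700 in spleen, 25941 to 27168 in gut number 1 and 8391 to 11381 in gut number 2. When only clonotypes that were also listed in a sample of another genotype were counted, the shares came close together: 51.0 to 53.8% of the beta reads in spleen, 46.9 to 50.8% in gut number 1 and 46.7 to 54.1% in gut number 2, and 75.2 to 78.2% of the alpha reads over all 9 samples. The difference in listed share therefore lay in clonotypes listed only within one genotype. This step does not treat the tissues alike: of the 10 columns of other genotypes through which a clonotype of a sample could be kept, 2 were spleen and 8 were day 6 gut or liver, so a clonotype of day 6 samples had more columns through which to pass. For this reason the main results on rank, segments and junctions are given over all listed clonotypes and, as an alternative chosen after seeing the data, over clonotypes shared between genotypes.

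**Figure D1:**
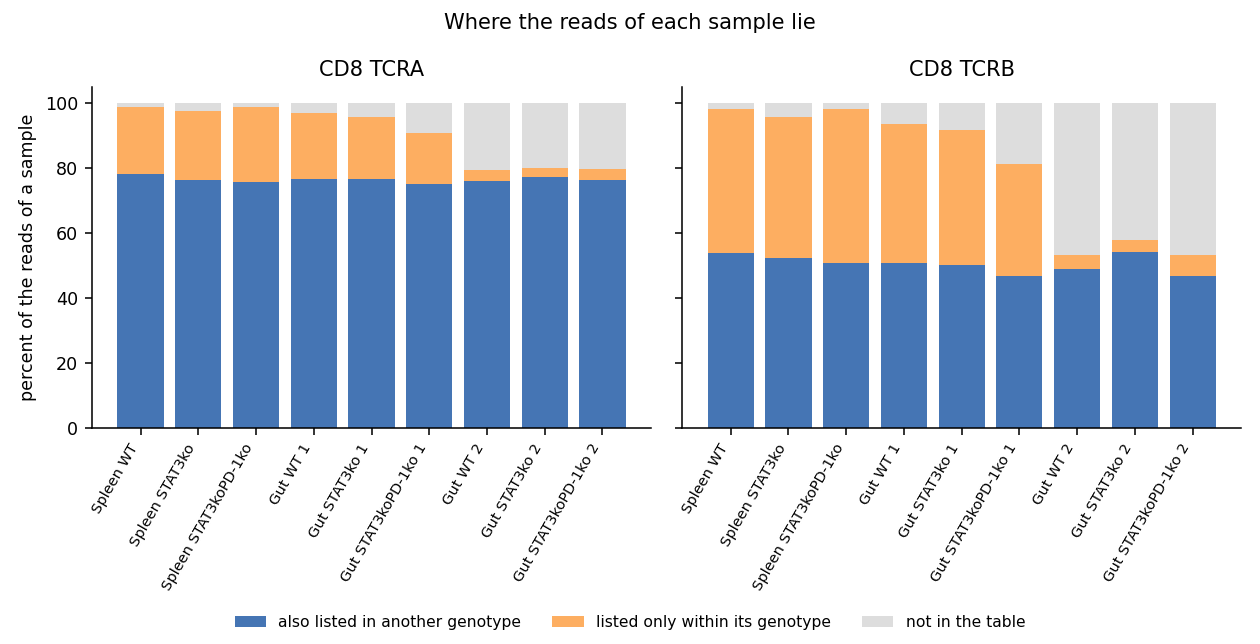
Stacked bars give, for each CD8 sample and each table, the percent of its reads in clonotypes also listed in another genotype, in clonotypes listed only within its own genotype, and in clonotypes not in the table. The first part is of like height in all samples, 46.7 to 54.1% in TCRB, while the second is small in gut number 2.

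The gut number 1 samples shared clonotypes with the spleen sample of their own genotype, while for gut number 2 the overlaps with own and other genotypes covered the same range. For each pair of samples the lower fraction of every shared clonotype was added up to give the overlap, in percent of reads. In TCRB, gut number 1 overlapped the spleen of its genotype by 20.4% ± 3.97 (SD, n = 3 pairs) and the other spleens by 7.59% ± 0.966 (n = 6 pairs). Gut number 2 overlapped them by 6.92% ± 0.763 and 6.76% ± 1.046. In TCRA the values were 29.0% ± 2.70 and 19.7% ± 2.37 for gut number 1, and 17.7% ± 1.67 and 18.2% ± 2.78 for gut number 2. An exact permutation test over the 6 ways to pair genotypes, one-sided, gave p = 0.167 for gut number 1 in both tables, the smallest it can give, so that this design cannot reach 0.05. For gut number 2 the same exact permutation test gave p = 0.167 in TCRB, again the smallest it can give, and p = 0.833 in TCRA, so that in TCRB the test does not tell the gut numbers apart and only the size of the difference does. The ranges of same-genotype and other pairs did not overlap for gut number 1, and did for gut number 2.

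Gut number 1 also overlapped both liver samples of its genotype, by 30.3% ± 6.84 and 33.1% ± 4.90 in TCRB, against 9.81% ± 1.12 and 11.1% ± 0.654 for livers of other genotypes. The spleen in turn overlapped liver number 1 of its genotype by 44.9% ± 7.71, and liver number 2 by 7.31% ± 1.02. Those 2 liver samples overlapped each other by 9.16% ± 1.66, against 9.06% ± 0.922 for livers of other genotypes. Gut number 2 overlapped the livers of its own genotype by 8.71% ± 1.18 and 9.998% ± 1.23, and gut number 1 of its own genotype by 11.4% ± 0.943, against 11.3% ± 0.856 for other genotypes. The deposited column headers number every CD8 spleen 1, like gut number 1 and liver number 1, although the sample titles give spleen no number. The labels say nothing of what a number stands for, nor of recipients or libraries shared between tissues, and whether the shared clonotypes came from the animals or from the handling of the libraries cannot be told apart.

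**Figure D2:**
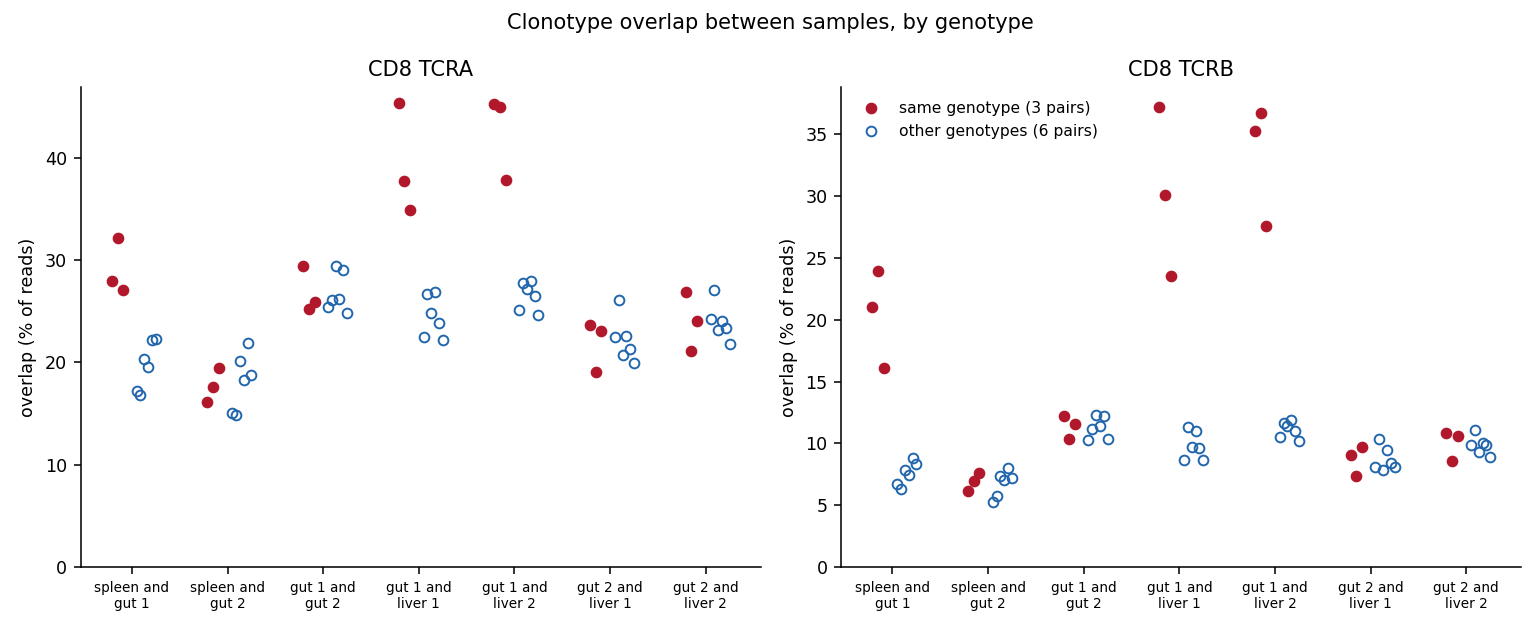
Overlap in percent of reads (y axis) between pairs of CD8 samples, for same-genotype pairs (3, filled) and pairs of other genotypes (6, open), in TCRA and TCRB. Same-genotype points stand above the others where gut number 1 is paired with spleen or either liver, and overlap them in range where gut number 2 is paired with spleen, gut number 1 or either liver.

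The 100 most frequent beta clonotypes of each spleen were followed into the gut. Of these, 92, 94 and 83 were listed in gut number 1 of the same genotype (WT, STAT3ko and STAT3koPD-1ko), and 39.0 to 46.0 on average in gut number 1 of the other genotypes. In gut number 2 the counts were 29, 32 and 36, against 29.0 to 37.0 for other genotypes. They held 13.2 to 24.9% of the reads of their spleen, 1.04 to 1.92% of gut number 1 and 0.553 to 0.940% of gut number 2 of the same genotype. They were chosen for their high share in spleen, so a lower share elsewhere follows in part from the choice. In the other direction, 28 to 61 of the 100 most frequent beta clonotypes of gut number 1 and 38 to 43 of those of gut number 2 were listed in the spleen of the same genotype. In gut number 1 the counts were 61, 54 and 28 for WT, STAT3ko and STAT3koPD-1ko, against 31.5, 25.5 and 29 on average in the spleens of other genotypes, so that the STAT3koPD-1ko leaders showed no such excess. In gut number 2 they were 43, 38 and 39 against 51.5, 34.5 and 40. Clonotypes listed in no spleen sample held 40.1 to 44.6% of the beta reads of gut number 1 and 24.5 to 30.5% of those of gut number 2, where a large part of the reads is not in the table.

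Over all listed clonotypes the frequency was on average spread over more clonotypes in gut than in spleen, but the difference missed the adjusted threshold. The number of beta clonotypes that together held 50% of the listed frequency was 364, 626 and 967 in the WT, STAT3ko and STAT3koPD-1ko spleens, 2412, 2487 and 2848 in gut number 1 and 1180, 716 and 923 in gut number 2. All gut number 1 samples stood above all spleens, and 2 of the 3 gut number 2 samples lay within the range of the spleens. The gut mean was higher by 1.35 on the log2 scale (exact permutation test over 84 divisions of 6 and 3 samples, two-sided, p = 0.0476, adjusted p = 0.0952 over 8 rank tests). In TCRA the numbers were 355, 623 and 876 in spleen, 1822, 1835 and 1576 in gut number 1 and 1211, 878 and 840 in gut number 2, a difference of 1.16 (exact permutation p = 0.0357, adjusted p = 0.0952). Neither passed the adjusted threshold of 0.05.

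When only clonotypes shared between genotypes were taken, a step with more day 6 than spleen columns, all 6 gut samples stood above all 3 spleens in both tables. The beta numbers were then 182, 275 and 410 in spleen, 1031, 1100 and 1198 in gut number 1 and 1054, 640 and 821 in gut number 2, a log2 difference of 1.801. The alpha numbers were 255, 461 and 594 in spleen and 764 to 1233 in gut, a difference of 1.30. Of the listed beta frequency the step kept 51.8 to 54.7% in spleen and 54.2 to 57.6% in gut number 1. In gut number 2 it kept 87.9 to 93.3%. The higher numbers of gut cannot be told apart from the step, and no test of them is given. These numbers are over listed clonotypes and do not measure the diversity of whole libraries. The depth of the libraries is unknown, since the tables hold fractions only, and a library with fewer cells or reads can list fewer clonotypes.

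At the head of the distribution no difference passed over all listed clonotypes. The 10 most frequent beta clonotypes held 5.73, 3.52 and 2.90% of the listed frequency in spleen, 2.72, 2.13 and 3.36% in gut number 1 and 2.56, 8.07 and 6.38% in gut number 2 (log2 difference -0.07, exact permutation p = 0.857, adjusted p = 0.857). The 100 most frequent held 13.4 to 25.3% in spleen and 8.97 to 21.0% in gut (exact permutation p = 0.226, adjusted p = 0.302). The 1000 most frequent held 50.8 to 73.1% in spleen, 32.4 to 33.3% in gut number 1 and 46.0 to 57.5% in gut number 2 (exact permutation p = 0.0476, adjusted p = 0.0952). The STAT3ko and STAT3koPD-1ko samples of gut number 2 held more in their 100 leading beta clonotypes, 21.0 and 20.5%, than the other 4 gut samples, 8.97 to 12.6%. As percent of all reads the gap was smaller, at 12.2 and 10.9% against 6.03 to 10.3%. Among the spleens, the WT sample was the most concentrated in both tables, and each spleen genotype is a single sample.

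**Figure D3:**
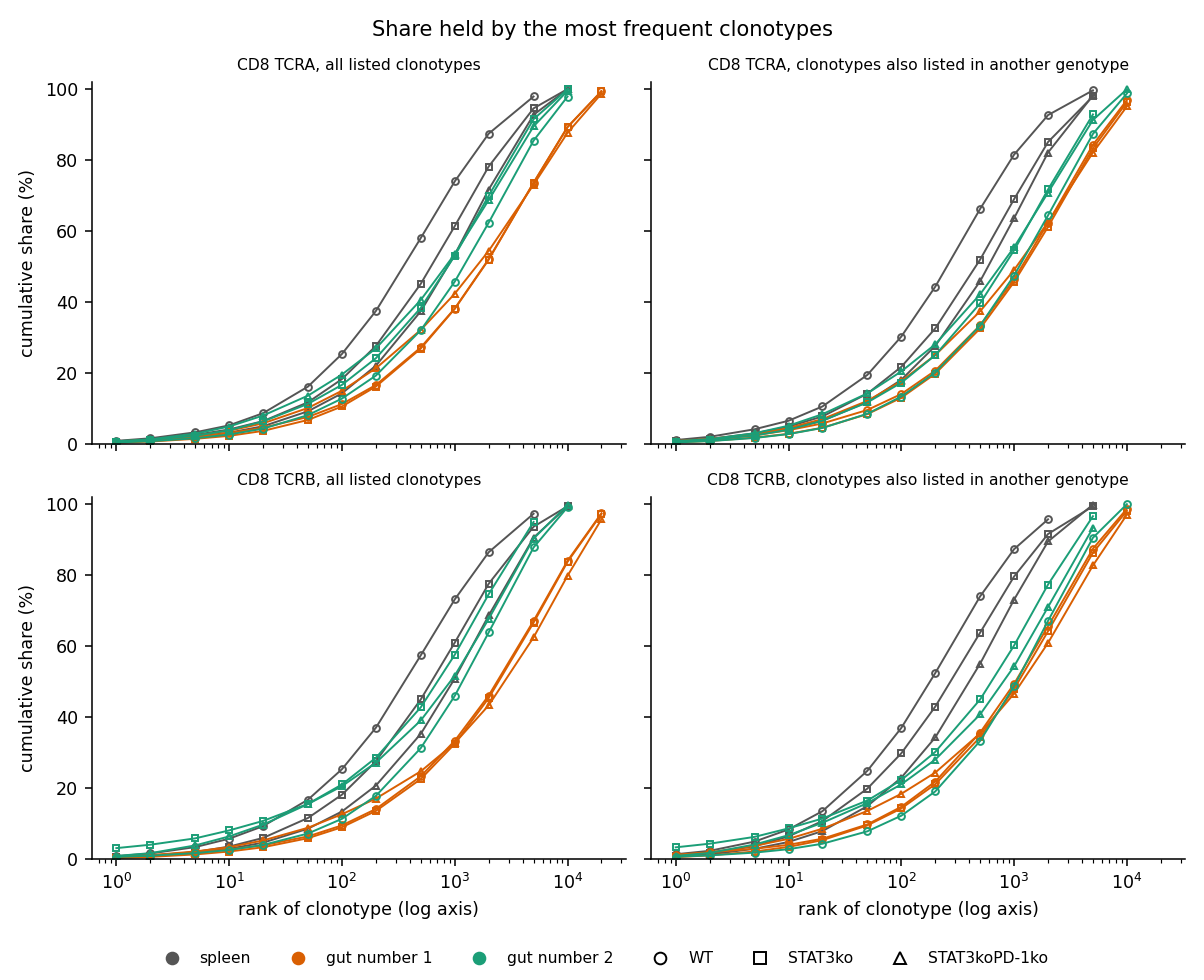
Cumulative share of the frequency in percent (y axis) against the rank of clonotypes on a log axis (x axis), for the 3 spleen, 3 gut number 1 and 3 gut number 2 samples. Left panels use all listed clonotypes and right panels those also listed in another genotype, where every gut curve reaches 50% at a higher rank than every spleen curve.

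Of the alpha V segments, TRAV6-1 and TRAV9-2 fell and TRAV10D rose in gut. Usage is the percent of the listed frequency that a segment holds, and it was tested with limma on log2(usage + 0.1). Of 41 TRAV segments tested, 3 passed an adjusted p of 0.05 (7.32%), 1 higher and 2 lower. TRAV6-1 (GRCm38 chr14:52638515-52638962, a V gene of the alpha locus) held 1.501, 0.778 and 0.979% in the WT, STAT3ko and STAT3koPD-1ko spleens, 0.503, 0.496 and 0.365% in gut number 1 and 0.357, 0.387 and 0.389% in gut number 2. Every gut sample was below every spleen. The log2 change was -1.16 ± 0.17 (SE), with an adjusted p of 8.42e-05 by limma, -1.06 against gut number 1 alone and -1.27 against gut number 2 alone.

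TRAV9-2 (chr14:53590857-53591514) held 1.26, 0.698 and 1.03% in spleen, 0.566, 0.583 and 0.496% in gut number 1 and 0.389, 0.388 and 0.286% in gut number 2, again without overlap. Its log2 change was -0.99 ± 0.19 (limma, adjusted p = 0.00128). TRAV10D (chr14:52810934-52811496) held 1.11, 1.06 and 0.784% in spleen and 1.25 to 1.62% in gut, a change of 0.49 ± 0.14 (limma, adjusted p = 0.0336). The mouse TRAV cluster holds near-identical copies such as TRAV10 and TRAV10D, and a read can be assigned to the wrong copy. The change of TRAV10 was 0.36 (limma, adjusted p = 0.143). As percent of all reads TRAV10D changed by 0.32 (limma, adjusted p = 0.167), and with each clonotype counted once by 0.12 (limma, adjusted p = 0.526). Its call was also lost without any of 5 samples in turn, 4 of gut and the STAT3koPD-1ko spleen, and without the STAT3ko spleen 7 of 41 passed. Against gut number 1 alone 2 of 41 passed (4.88%), TRAV6-1 and TRAV9-2. Against gut number 2 alone 4 of 41 passed (9.76%), these 2 with TRAV10D and TRAV1, whose log2 change was -0.67 (limma, adjusted p = 0.013). None of the 41 differed between the 2 gut numbers (0%).

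The lower usage of TRAV6-1 and TRAV9-2 lay in how frequent their clonotypes were more than in how many there were. TRAV6-1 was carried by 0.965 to 1.07% of the listed clonotypes in spleen and by 0.739 to 1.04% in gut. Its 10 most frequent clonotypes held 1.19, 0.378 and 0.510% of the listed frequency in the spleens and 0.111 to 0.203% in the gut samples. For TRAV9-2 these 10 held 0.214 to 0.642% in spleen and 0.0919 to 0.122% in gut. With each clonotype counted once, the change of TRAV6-1 was -0.22 (limma, adjusted p = 0.178) and that of TRAV9-2 was -0.29 (limma, adjusted p = 0.0607), so both calls rest on weighting by frequency. Both changes held over clonotypes shared between genotypes, -1.07 ± 0.18 and -0.97 ± 0.17 (limma, adjusted p = 0.000665 and 0.000941). TRAV10D then changed by 0.63 ± 0.14 and TRAV14D-2 by 0.57 ± 0.14. Over all listed clonotypes TRAV14D-2 had not passed (0.48, limma, adjusted p = 0.0648). That step kept 56.6 to 81.2% of TRAV10D and 56.8 to 83.0% of TRAV14D-2 in spleen, against 76.5 to 78.9% of all segments. In gut it kept 76.2 to 99.1% and 71.7 to 95.9%, against 79.1 to 96.5%. The larger changes of TRAV10D and TRAV14D-2 cannot be told apart from the step, and no test of them is given.

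TRAV17, TRAV19 and TRAV21/DV12, which lie near the J cluster, together held 1.66 to 1.95% of the listed frequency in spleen, 1.91 to 2.19% in gut number 1 and 1.31 to 2.05% in gut number 2. The families of TRAV6, TRAV7, TRAV9, TRAV12 and TRAV14 held 12.1, 15.4, 2.68, 12.3 and 4.53% on average in spleen. They held 10.98, 15.5, 2.31, 13.4 and 4.64% in gut number 1 and 12.1, 17.4, 2.02, 13.3 and 4.45% in gut number 2. The TRAV9 family, of which TRAV9-2 is a member, held 2.57 to 2.88% in spleen and 1.89 to 2.43% in gut, with all 6 gut samples below all spleens, also over clonotypes shared between genotypes (2.24 to 2.63% and 1.85 to 2.22%). The TRAV6 family overlapped between tissues, at 11.3 to 13.4% and 10.498 to 13.1%. The invariant alpha chains of other T cell types were rare: TRAV11 or TRAV11D with TRAJ18, the chain of invariant natural killer T cells, held 0.001 to 0.037% in spleen and 0.002 to 0.131% in gut. TRAV1 with TRAJ33, the chain of mucosal-associated invariant T cells, held 0.021 to 0.062% and 0.008 to 0.036%.

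Of the beta V segments, none of the 18 tested passed against all 6 gut samples (0%), while 7 had an unadjusted p under 0.05. TRBV29, the segment used most, held 22.1 to 25.5% in spleen and 18.4 to 21.2% in gut, with every gut sample below every spleen (log2 change -0.29 ± 0.09, limma, adjusted p = 0.0755). TRBV13-2 held 4.68 to 6.18% in spleen and 3.06 to 4.52% in gut, also without overlap (-0.48 ± 0.14, limma, adjusted p = 0.0755). TRBV13-1 held 7.42, 11.6 and 9.999% in the spleens and 11.5 to 14.995% in gut (0.44 ± 0.15), and TRBV14 held 5.50 to 8.84% and 7.96 to 10.9% (0.40 ± 0.15), both with an adjusted p of 0.0755 by limma, and both negative as percent of all reads, at -0.04 and -0.07. TRBV2 held 0.638 to 0.978% in spleen and 0.367 to 0.733% in gut (-0.54 ± 0.21, limma, adjusted p = 0.0755). The STAT3ko spleen was the one nearest to the gut for TRBV13-1 and TRBV14. Without that sample 6 of 18 passed, TRBV29, TRBV13-2, TRBV13-1 and TRBV14 among them (limma, adjusted p = 0.0476 for each of these 4). For TRBV13-1 and TRBV14 the sample left out was the nearest one, so a lower p follows in part from the choice. Without other samples the limma adjusted p reached 0.143 for TRBV13-2, 0.182 for TRBV29 and TRBV13-1, and 0.381 for TRBV14. With the gut number as a term (replicate block) 5 of 18 passed, TRBV13-2, TRBV13-1 and TRBV2 among them (limma, adjusted p = 0.0178, 0.0346 and 0.0412). Over clonotypes shared between genotypes TRBV13-2 did not pass, at -0.44 ± 0.15 (limma, adjusted p = 0.0526), and TRBV29 was at -0.47 ± 0.14. That step kept 60.3 to 67.0% of the TRBV29 frequency in spleen, 57.6 to 64.0% in gut number 1 and 87.3 to 94.3% in gut number 2. For all segments it kept 51.8 to 54.7%, 54.2 to 57.6% and 87.9 to 93.3%. The larger change of TRBV29 cannot be told apart from the step, and no test of it is given. TRBV29 was carried by 13.0 to 13.5% of the listed clonotypes in spleen and by 12.4 to 14.6% in gut.

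Gut number 1 alone gave 0 calls (0%, with 5 at an unadjusted p under 0.05), and gut number 2 alone gave 5 of 18 (27.8%). TRBV20 held 1.46, 0.698 and 1.0498% in spleen, 0.885, 0.766 and 0.684% in gut number 1 and 0.292, 0.337 and 0.240% in gut number 2. Its change in gut number 2 was -1.54 ± 0.20 (limma, adjusted p = 4.89e-05). TRBV1 held 2.57 to 3.23% in spleen, 2.58 to 3.53% in gut number 1 and 1.26 to 1.58% in gut number 2 (-0.92 ± 0.16, limma, adjusted p = 0.000331). TRBV13-2 and TRBV2 had log2 changes of -0.62 and -0.67 and TRBV13-1 of 0.57 (limma, adjusted p = 0.0045, 0.0287 and 0.0159). None of these 3 passed over clonotypes shared between genotypes, where TRBV2 was at 0.06, and TRBV13-1 was at -0.26 as percent of all reads. The call of TRBV2 was also lost without either of 2 spleens (WT and STAT3koPD-1ko) or either of 2 gut number 2 samples (WT and STAT3ko), with an adjusted p of up to 0.140, and that of TRBV13-1 without the WT spleen or WT gut number 2, with up to 0.0764 (limma). TRBV1 and TRBV20 were also the 2 of 18 that differed between gut number 2 and gut number 1 (11.1%). The differences of TRBV20 and TRBV1 were not seen over clonotypes shared between genotypes, which keep 10.9 to 18.9% of the TRBV20 and 23.8 to 36.1% of the TRBV1 frequency in spleen, and 76.4 to 96.3% and 82.4 to 91.4% in gut number 2. TRBV20 then held 0.162 to 0.383% in spleen, 0.252 to 0.421% in gut number 1 and 0.209 to 0.348% in gut number 2 (0.03 for gut number 2 against spleen, limma, adjusted p = 0.955), and TRBV1 held 1.12 to 2.13%, 1.40 to 2.24% and 1.23 to 1.51% (-0.21, limma, adjusted p = 0.885).

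The V beta segments that bind the superantigens of endogenous mouse mammary tumor viruses (Mtv) of BALB/c mice are TRBV26, TRBV12-1, TRBV12-2, TRBV16 and TRBV15. A superantigen binds the V beta outside the CDR3 and can stimulate T cells of many clonotypes. Together they held 20.6 to 21.7% of the listed frequency in spleen, 23.4 to 25.0% in gut number 1 and 24.2 to 25.9% in gut number 2, without overlap. All 5 had a positive log2 change, from 0.14 for TRBV16 to 0.40 for TRBV26, and none passed (limma, adjusted p from 0.171 to 0.387), but as percent of all reads all 5 were negative, from -0.33 to -0.04. Over all 18 tested segments the median log2 change was -0.02, and -0.49 as percent of all reads. The segments bound by the superantigen of Mtv-7, which BALB/c lacks, TRBV19, TRBV29, TRBV17 and TRBV13-3, held 39.2 to 43.3% in spleen and 34.2 to 37.4% in gut. TRBV29 makes up most of that sum, and TRBV13-3 did not move with it (0.07 ± 0.14, limma, adjusted p = 0.639). The V beta 8 segments TRBV13-1, TRBV13-2 and TRBV13-3 held 21.3 to 23.9% in spleen and 22.8 to 27.9% in gut, although TRBV13-1 and TRBV13-2 had changes of opposite sign. Over clonotypes shared between genotypes the 3 sums were 21.6 to 23.0%, 40.9 to 45.8% and 21.3 to 22.5% in spleen, and 24.2 to 27.5%, 34.0 to 37.7% and 21.4 to 27.9% in gut.

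TRBV26, the V beta 3 segment, did not pass over all listed clonotypes, where it held 1.34, 0.963 and 0.772% in spleen, 1.59, 1.37 and 2.01% in gut number 1 and 1.08, 0.840 and 1.48% in gut number 2 (0.40 ± 0.24, limma, adjusted p = 0.214). Over clonotypes shared between genotypes it held 0.730, 0.579 and 0.410%, 1.12, 1.17 and 2.10%, and 1.03, 0.788 and 1.47%. That step kept 27.5 to 32.9% of the TRBV26 frequency in spleen, 38.2 to 60.05% in gut number 1 and 87.3 to 87.6% in gut number 2, against 51.8 to 54.7%, 54.2 to 57.6% and 87.9 to 93.3% of the frequency of all segments, so the higher values of gut cannot be told apart from the step and no test of them is given. As percent of all reads the log2 change was -0.04. It was carried by 1.56 to 1.94% of the listed clonotypes in spleen and by 2.53 to 2.95% in gut. In the CD4 samples with the same labels TRBV26 held 4.45 to 5.68% in spleen and 22.6 to 28.0% in gut. Of the CD8 TRBV26 frequency, 17.8 to 34.2% in gut and 11.1 to 18.01% in spleen lay in clonotypes also listed in the CD4 sample of the same label, against 3.21 to 7.42% and 5.34 to 7.88% for the other V segments. Without those clonotypes TRBV26 held 0.318 to 0.581% in spleen and 0.466 to 1.37% in gut over clonotypes shared between genotypes, and 2 of the 6 gut values lay within the range of the spleens. 

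**Figure D4:**
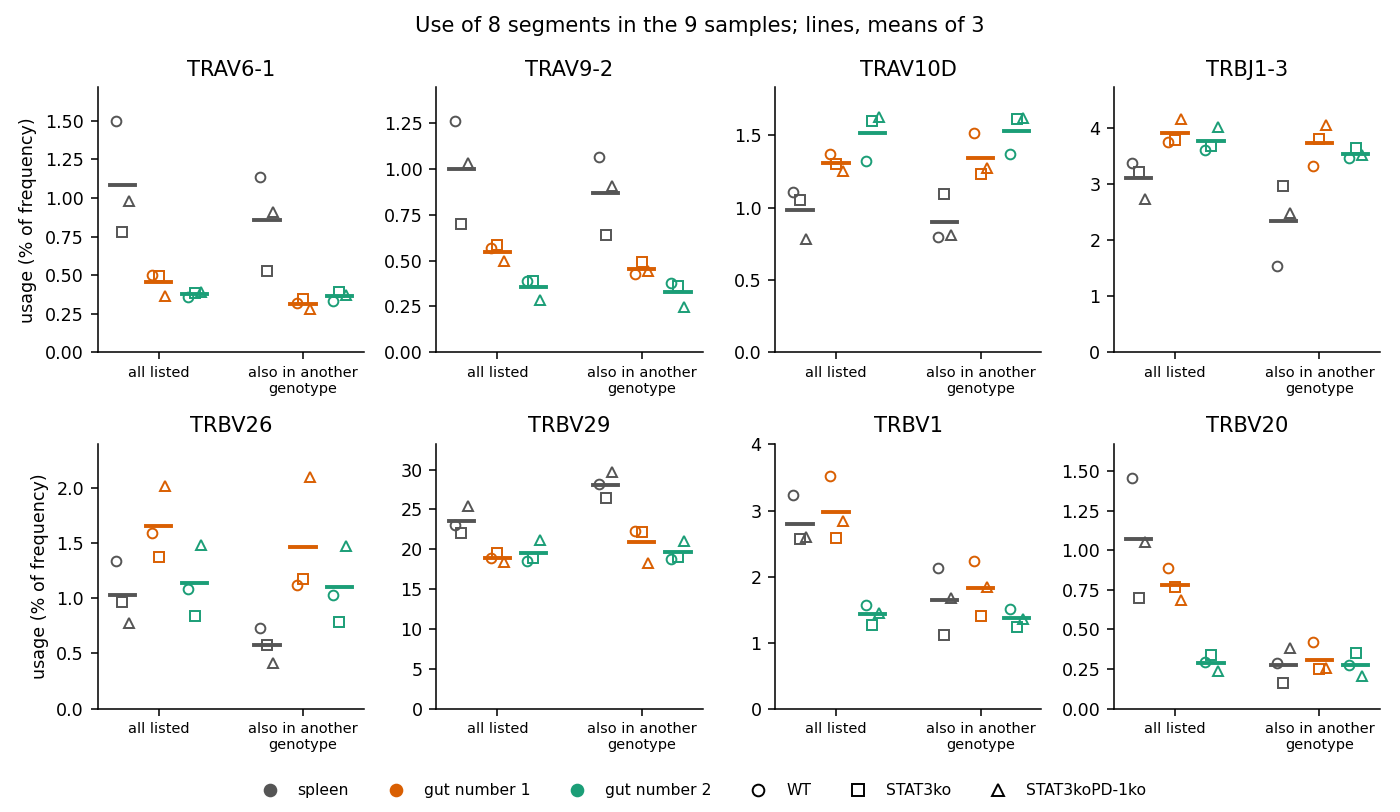
Usage in percent of the frequency (y axis, from 0) of 8 segments in the 3 spleen, 3 gut number 1 and 3 gut number 2 samples, with symbols for genotype and lines at the means. In each panel the left points use all listed clonotypes and the right points those also listed in another genotype, where TRBV1 and TRBV20 of gut number 2 no longer stand apart, and where the part of TRBV26 that is kept is smaller in spleen than in gut.

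Of the beta J segments TRBJ1-3 rose in gut, 1 of 12 tested (8.33%). TRBJ1-3 (chr6:41534323-41534376) held 3.38, 3.20 and 2.73% in spleen, 3.75, 3.78 and 4.16% in gut number 1 and 3.60, 3.68 and 4.02% in gut number 2. All 6 gut samples were above all spleens (0.30 ± 0.08, limma, adjusted p = 0.0443), though as percent of all reads the change was -0.17 (limma, adjusted p = 0.555). Gut number 1 alone gave 2 of 12 calls (16.7%), TRBJ1-3 and TRBJ1-4, by 0.32 and 0.34 (limma, adjusted p = 0.0494 for both). With genotype as a block TRBJ1-3 no longer passed against all gut samples (limma, adjusted p = 0.0994), nor did either segment against gut number 1 (limma, adjusted p = 0.062 for both). In the comparison without the block, gut number 2 alone gave 2 of 12 (16.7%), TRBJ1-5 and TRBJ2-3, which were lower by -0.78 ± 0.16 and -0.39 ± 0.12 (limma, adjusted p = 0.00806 and 0.0442). With the block gut number 2 gave 1 call. Leaving out 1 sample at a time, the limma adjusted p reached 0.0517 for TRBJ1-5 and 0.145 for TRBJ2-3. The call of TRBJ1-3 was lost without any of 6 samples in turn, 5 of gut and the STAT3koPD-1ko spleen. Over clonotypes shared between genotypes TRBJ1-3, TRBJ1-4 and TRBJ2-2 changed by 0.66, 0.48 and 0.21, and TRBJ2-3 by -0.30. That step kept 25.0, 50.7 and 47.0% of the TRBJ1-3 frequency in the spleens, against 51.8 to 54.7% of all segments. In gut number 1 it kept 48.0 to 56.2% against 54.2 to 57.6%, and in gut number 2 76.8 to 92.3% against 87.9 to 93.3%. The larger change of TRBJ1-3 cannot be told apart from the step, and no test of these 4 is given. The TRBJ1 cluster as a whole held 28.9 to 30.6% in spleen and 28.5 to 32.2% in gut, and over clonotypes shared between genotypes 25.9 to 28.4% and 28.6 to 31.3%, with all 6 gut samples above all spleens.

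None of the 41 alpha J segments passed in any of these comparisons (0%). The 5 with the largest moderated t were TRAJ12, TRAJ49, TRAJ39, TRAJ57 and TRAJ18. TRAJ12 held 3.38 to 3.56% in spleen and 3.61 to 4.99% in gut, without overlap (0.29 ± 0.12, limma, adjusted p = 0.468). The J segments nearer to the V cluster, TRAJ61 to TRAJ31, held 34.6, 42.9 and 44.3% in the spleens and 40.0 to 43.5% in gut. So the use of near and far J segments overlapped between tissues.

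The junctions of the listed clonotypes were shorter in gut number 2. Over CDR3 that run from cysteine to phenylalanine or tryptophan, the mean number of bases between the V and J ends in TCRB was 8.44, 8.55 and 8.33 in spleen, 8.40, 8.39 and 8.30 in gut number 1 and 7.42, 7.79 and 7.39 in gut number 2. In TCRA it was 2.04, 1.97 and 2.02, then 1.92, 1.90 and 1.79, then 1.49, 1.55 and 1.51. In TCRA all 6 gut samples were below all spleens (exact permutation p = 0.0238, adjusted p = 0.167 over 14 CDR3 tests), while in TCRB only gut number 2 stood apart from spleen (exact permutation p = 0.119, adjusted p = 0.333). Over clonotypes shared between genotypes, TCRB values were 7.21 to 7.52 in spleen, 7.25 to 7.40 in gut number 1 and 7.29 to 7.74 in gut number 2, and TCRA values were 1.51 to 1.57, 1.46 to 1.51 and 1.44 to 1.51. Among shared clonotypes the TCRB ranges overlapped. In TCRA the gap was smaller but each gut number 2 sample stayed below each spleen (at most 1.507 against at least 1.512), and 1 gut number 1 sample, at 1.514, lay within the range of the spleens.

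Mean CDR3 length in TCRB was 13.5 residues in each spleen, 13.5 in each sample of gut number 1 and 13.2, 13.4 and 13.3 in gut number 2 (exact permutation p = 0.429, adjusted p = 0.617). CDR3 of 16 residues held 6.32% ± 0.0794 (SD, n = 3) of the frequency in spleen, 5.64% ± 0.375 in gut number 1 and 2.53% ± 0.521 in gut number 2. Among shared clonotypes they held 2.52, 2.57 and 2.46% on average. The most common length, 14 residues, held 28.0% in spleen, 30.3% in gut number 1 and 31.6% in gut number 2, and among shared clonotypes 29.1, 31.8 and 31.5%. The mean length of alpha CDR3 was 13.6 to 13.7 residues in spleen and 13.5 to 13.7 in gut (exact permutation p = 0.0595, adjusted p = 0.208).

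**Figure D5:**
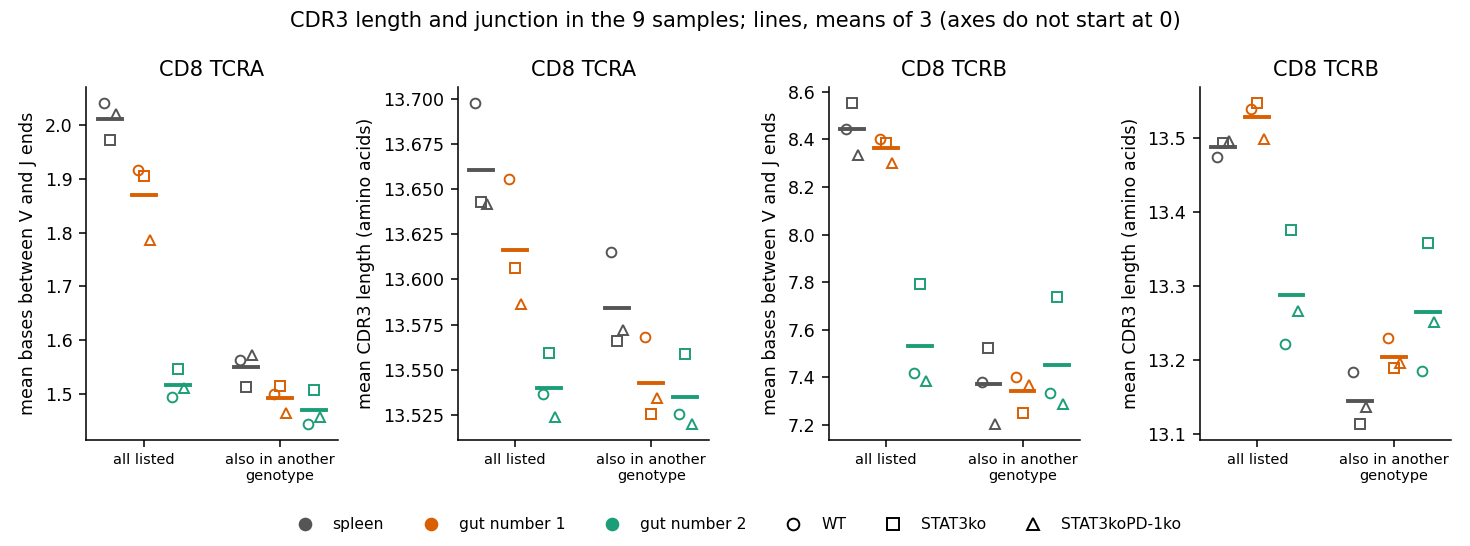
Mean number of bases between the V and J ends and mean CDR3 length in residues (y axes, not from 0) for the 3 spleen, 3 gut number 1 and 3 gut number 2 samples of both tables. The gap between gut number 2 and spleen over all listed clonotypes, about 8.44 against 7.53 bases in TCRB, is absent in TCRB over clonotypes also listed in another genotype, while in TCRA it is smaller.

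None of the other CDR3 measures passed the adjusted threshold. CDR3 that do not run from cysteine to phenylalanine or tryptophan held 1.049 to 1.67% of the beta frequency in spleen and 1.68 to 2.54% in gut (exact permutation p = 0.0238, adjusted p = 0.167). Most of these were TRBV26 clonotypes, whose listed CDR3 starts with serine, at 0.772 to 1.34% in spleen and 0.840 to 2.01% in gut, and the YAEQFF clonotype. In TCRA such CDR3 held 2.59 to 3.33% and 2.55 to 2.88%, mainly with TRAJ7 and TRAJ44, whose listed CDR3 ends in leucine. The mean net charge of the central beta CDR3, without 4 residues at each end, was -0.377, -0.357 and -0.375 in spleen and -0.363 to -0.322 in gut (exact permutation p = 0.0357, adjusted p = 0.167), and over clonotypes shared between genotypes -0.405 to -0.345 and -0.367 to -0.320. A cysteine inside the beta CDR3 was found in 2.65 to 3.35% of the frequency in spleen, 2.67 to 3.65% in gut number 1 and 1.32 to 1.62% in gut number 2 (exact permutation p = 0.357, adjusted p = 0.617), and over clonotypes shared between genotypes in 1.13 to 2.16%, 1.43 to 2.28% and 1.30 to 1.55%.

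Glutamate was less used in the central alpha CDR3 of gut, 1 of 20 amino acids (5%). It made up 5.28, 5.03 and 5.34% of central residues in spleen and 4.62 to 4.90% in gut, without overlap (-0.13 ± 0.03, limma, adjusted p = 0.0422). This call was lost without any of 6 samples in turn and with the gut number as a term (limma, adjusted p = 0.051). In TCRB none of 20 passed (0%). Asparagine, isoleucine, methionine, alanine and leucine had the largest moderated t. Asparagine came nearest, at 7.17 to 7.69% in spleen, 7.94 to 8.22% in gut number 1 and 8.496 to 8.53% in gut number 2 (0.16 ± 0.04, limma, adjusted p = 0.0633). Gut number 1 alone gave no call in either table (0%). Gut number 2 alone gave 5 of 20 in TCRA (25%), tyrosine higher and leucine, lysine, histidine and glutamate lower, and 4 of 20 in TCRB (20%), asparagine higher and phenylalanine, lysine and glutamate lower. Gut number 2 differed from gut number 1 in 6 of 20 in TCRB (30%) and in none in TCRA (0%). No amino acid passed over clonotypes shared between genotypes in any of these comparisons (0 calls by limma, with 2 to 4 at an unadjusted p under 0.05 for each comparison with spleen).

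Only 272 of 82447 beta clonotypes and 828 of 59365 alpha clonotypes were listed in all 9 samples. Their frequencies, divided by the listed share and tested on the log2 scale, gave 0 calls against all 6 gut samples in both tables (0%; 112 alpha and 40 beta clonotypes at an unadjusted p under 0.05), 0 against gut number 1 (0%), and 1 against gut number 2, in TCRB (0.368%). The median log2 change was 0.64 in TCRA and 0.97 in TCRB. As fractions of all reads the medians were 0.46 and 0.48. Their sum moved otherwise: the beta clonotypes together held 5.88 to 7.33% of the listed frequency in spleen, 5.00 to 5.26% in gut number 1 and 8.96 to 9.38% in gut number 2, but 5.78 to 7.01% of all reads in spleen and 4.19 to 5.20% in gut. The alpha clonotypes held 21.6 to 24.7% and 20.8 to 25.8% of the listed frequency, and 21.1 to 24.4% and 19.1 to 20.9% of all reads. As percent of all reads every gut sample was below every spleen in both tables. Without the STAT3koPD-1ko spleen 13 alpha and 8 beta clonotypes passed against gut, and 6 and 29 against gut number 2. The beta clonotypes with the largest moderated t are printed with 1 alpha clonotype, since they are listed in every sample.
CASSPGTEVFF, TRBV29 and TRBJ1-1: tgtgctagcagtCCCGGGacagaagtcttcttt
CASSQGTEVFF, TRBV5 and TRBJ1-1: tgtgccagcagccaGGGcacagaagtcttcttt
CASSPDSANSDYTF, TRBV13-3 and TRBJ1-2: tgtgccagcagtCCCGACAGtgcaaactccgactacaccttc
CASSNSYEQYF, TRBV16 and TRBJ2-7: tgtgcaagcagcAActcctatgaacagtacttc
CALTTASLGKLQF, TRAV12N-3 and TRAJ24: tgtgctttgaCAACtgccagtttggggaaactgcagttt
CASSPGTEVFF held at most 0.009% in spleen, with the STAT3ko spleen at the smallest value listed for that sample, and 0.024 to 0.151% in gut, without overlap (limma, adjusted p = 0.0705). Its log2 change depends on that smallest value and ranged from 3.13 without the STAT3ko spleen to 5.38 without the WT spleen. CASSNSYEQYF was the clonotype called in gut number 2, where it held 0.020 to 0.024%, against 0.001 to 0.012% in gut number 1 (limma against spleen, adjusted p = 0.0393). In each of the 3 spleens it stood at the smallest value listed for that sample, 0.000364 to 0.000382% of reads, so the size of its fold change is not given and the small spread between the spleens is that of the smallest values. Its call was lost as a fraction of all reads (limma, adjusted p = 0.207) and without any of 5 samples in turn. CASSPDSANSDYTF likewise stood at the smallest listed value in each of the 3 spleens, and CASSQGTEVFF in the STAT3koPD-1ko spleen. Their large t rests in part on those values. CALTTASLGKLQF held 0.001 to 0.002% in spleen and 0.008 to 0.033% in gut (3.77 ± 0.83, limma, adjusted p = 0.16). Its value in the STAT3ko spleen, 0.000575% of reads, lay near the smallest listed there, 0.000287%.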

How the data were processed

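The authors sorted donor CD8 T cells, extracted total RNA and prepared TCR-CDR3 libraries with a SMARTer mouse TCR a/b kit. Reads were assembled to clonotypes with MiXCR and joined over 18 libraries per table with VDJtools by identical CDR3 amino acids, V and J. The labels name the mm10 build. The deposited values are fractions of the reads of a library (0 to 1), formed by the authors before clonotypes of a single library were dropped. Depth and confidence intervals per value therefore cannot be given, and the number of samples limits precision.

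Fractions of the 15 sample columns of a table were divided by their sum in each sample. No per-sample column was left unmapped. Segment usage (mean of at least 0.5%) was fitted on log2(usage + 0.1) with limma 3.58.1 in R 4.3.3, spleen against all gut, and spleen, gut number 1 and gut number 2 as levels. Central amino acids and clonotypes listed in all 9 samples were fitted likewise, with Benjamini-Hochberg adjustment over all features of a table. Rank and CDR3 measures were tested with exact permutation tests over samples. Fits were tested on simulated data. Positions are from GENCODE vM21.

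Groups came from the labels. Spleen has no replicate number in its titles (the column headers give 1) and 1 sample per genotype, so genotype differences enter its spread, and p-values measure only the spread between these samples. The study worked in 2 batches that the labels do not tie to samples. Members, lists and tests were chosen with earlier results of these data known. Genes were named by passing the threshold (10 at most per comparison with all gut samples, 5 per gut number), otherwise by the 5 largest moderated t, with the list members and the most frequent clonotype of each sample. Comparisons of the gut numbers with each other, and amino acids by gut number, were added after seeing the data.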

Additional observations from a re-analysis of the deposited data

Results flagged for a closer look

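In TCRB, gut number 2 differed from gut number 1 in 2 V segments and 6 central amino acids by the limma test of that difference. TRBV20 and TRBV1 were lower in gut number 2, by -1.17 ± 0.20 and -1.004 ± 0.156 on the log2 scale (adjusted p = 0.000457 and 0.000267). Lysine, histidine, phenylalanine and glutamate were lower by -0.60, -0.55, -0.37 and -0.21 (adjusted p = 0.018 for each), arginine by -0.19 (adjusted p = 0.0356), and tyrosine was higher by 0.16 (adjusted p = 0.0418). None of these 8 passed over clonotypes shared between genotypes.

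The STAT3koPD-1ko sample of gut number 2 was flagged against the other 5 gut samples in 2 of 66 values looked at. Chance would single out about 1 in 20, so this is no more than chance would give. Its mean net charge of the central alpha CDR3 was -0.392, and TRBV12-2 held 9.56% of its listed beta frequency.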

How the results depend on the processing

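Counts of calls are given for gut, gut number 1 and gut number 2 against spleen, with the cause of each change not tested. Among clonotypes shared between genotypes, TCRA V calls in gut number 1 were 4, TCRB V calls 2, 1 and 1, TCRB J calls 4 in gut and 1 in gut number 2, and amino acid calls 0 in TCRA gut, in both gut number 2 comparisons and between the gut numbers in TCRB, as were V calls between them. Rank differences for the top 100, the top 1000 and the number holding 50% were then -0.54, -0.52 and 1.30 in TCRA. In TCRB they were -0.81, -0.65 and 1.801. Calls gained among shared clonotypes, and these rank differences, cannot be told apart from the step, which has more day 6 than spleen columns. Directions turned for TCRA hydrophobic residues (0.169), TCRB CDR3 length (0.0897) and bases between V and J (0.0263), TRBV2 (0.0424 in gut, 0.0597 in gut number 2), TRBV17 (0.0111), TRBV13-3 (-0.0028), TRBV20 in gut number 2 (0.0266), TCRB isoleucine (0.0297), and TCRA lysine and leucine in gut number 2 (0.0536 and 0.0345).

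As percent of all reads the median of all V segments in gut number 2 moved to -0.34 in TCRA and -0.84 in TCRB, so calls there are relative to that shift: TCRA V 12 and TCRA J 2 in gut number 2, TCRB V 5, 6 and 17, TCRB J 2, 0 and 12, and 0 shared clonotypes. Rank differences were -0.61, -0.66 and 1.62 in TCRA and -0.96, -1.05 and 2.71 in TCRB, where the last is set largely by the listed share, 53.2 to 58.0% of reads in gut number 2. TRBJ1-3 (-0.17), TRBV13-1 (-0.036, and -0.26 in gut number 2), TRBV14 (-0.073), TRBV26 (-0.0366), TRBV12-1 (-0.30), TRBV12-2 (-0.20), TRBV16 (-0.33), TRBV15 (-0.31) and TRBV13-3 (-0.41) turned.

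With each clonotype counted once, TCRA V calls were 1, 0 and 7, TCRA J calls 1 in gut number 2, TCRA amino acids 0, 2 and 12, TCRB V 1, 2 and 15, TCRB J 0, 0 and 5, and TCRB amino acids 19 in gut number 2. TRAJ49 (-0.0077), TRAJ39 (0.0135), TRAJ18 (0.0015), TRBV29 (0.0288), TRBV13-3 (-0.0346) and inner cysteine in TCRA (-0.0515) turned. With clonotypes of at least 3 libraries TCRB V and J calls in gut were 1 and 0, and TRBV13-3 (-0.0077) and inner cysteine in TCRA (-0.00925) turned. With no filter V calls in gut were 1 in both tables. With a pseudocount of 1 they were 7 for TCRA V in gut number 2, and 3 for TCRB V and J in gut. With all CDR3 the TCRB length difference was 0.0138. Overlap of gut number 2 with its spleen, divided by the listed share, was 20.3% and 9.59%, and over clonotypes under 0.1% it was 14.2% and 6.02%, with 24.6% for TCRA gut number 1.

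Genotype as a block gave 5 TCRA V calls in gut, TCRB J calls of 0, 0 and 1, 1 TCRB V call in gut number 1 and 3 beta clonotypes in gut number 2. The titles give spleen no number and the column headers number each spleen 1, so samples share only a number, and a block on the number in the headers leaves gut number 1 against spleen, as given. The replicate block gave 5 calls for TCRB V, 4 for TCRB J, 0 for TCRA amino acids and 1 for TCRB amino acids in gut, and moved no other count by over 1.5 times.

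Leaving out 1 sample at a time gave, for gut, gut number 1 and gut number 2 against spleen, TCRA V calls of 2 to 7, 1 to 5 and 2 to 8, the highest each without the STAT3ko spleen, and TCRB V calls of 0 to 6, 0 to 1 and 3 to 6, with 6 in gut again without that spleen. TCRB J calls ranged over 0 to 2 in each, TCRA amino acid calls over 0 to 2, 0 to 1 and 0 to 6, and TCRB amino acid calls over 0 to 1, 0 to 1 and 4 to 8. Between the gut numbers the ranges were 0 to 2 for TCRA V, 2 to 4 for TCRB V, 0 to 2 for TCRB J, and 0 to 1 and 0 to 8 for amino acids. Without the STAT3koPD-1ko spleen 13 alpha and 8 beta clonotypes passed in gut, and 6 and 29 in gut number 2, with 0 as the lowest counts. The TCRB share of the top 10 ranged from -0.294 to 0.213, hydrophobic residues from -0.320 to 0.233 in TCRA and from -0.707 to 0.0125 in TCRB, inner cysteine in TCRA from -0.0013 to 0.0477, and TRBV13-3 from -0.0072 to 0.147. Each rank difference of the number holding 50% kept its sign, at 0.81 to 1.46 in TCRA and 0.98 to 1.69 in TCRB. Depth is unknown, so a clonotype listed at 0 may lie below detection.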
